A study of Solanum pimpinellifolium with 60 samples.

Results

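The 150 genes described here were those whose expression in wild-type tomato rose most sharply at the oldest stage collected, the floral bud 6 days post initiation (dpi). They were chosen from the wild-type libraries alone. Counts were expressed as RPM (the reads of a gene scaled to a common library size), and the 3 libraries of each stage were averaged. Genes with a 6 dpi mean of at least 10 RPM were ranked by the ratio of that mean plus 1 to the highest mean of the other 4 stages plus 1, and the first 150 were kept. These were 150 of 12119 genes that reached 10 RPM and of 34725 genes in the table. Because the wild-type values chose the genes, the wild-type levels and every difference from the wild type are given as description without a test. The tests used the 45 libraries of the near-isogenic lines (NILs), which had no part in the choice.

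The libraries are 3′ Tag RNA-seq, which reads only the 3′ end of each mRNA, from Solanum pimpinellifolium LA1589 (the wild type) and NILs with lc, with fas or with both (lc/fas). In the lc allele, single-base changes lie downstream of SlWUS, the tomato WUSCHEL gene. In fas, an inversion separates SlCLV3 from part of its promoter and breaks SlYABBY2b. The double NIL carries both alleles. All 4 genotypes came out of repeated backcrosses of cultivated donors (Orange Strawberry with lc and fas, Yellow Stuffer with lc) to LA1589, and the wild type is a line from the same cross. The 5 tissues were dissected from pooled young inflorescences, namely the sympodial shoot apical meristem (SYM), the floral with the inflorescence meristem (F&IM) and buds of 2, 4 and 6 dpi. Each of the 20 groups had 3 replicates, 60 libraries in all, and whether a replicate was a separate planting is not stated, so that p-values measure the spread between these collections.

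Between initiation and 6 dpi a tomato bud sets out sepals, petals, stamens and carpels in turn. MADS-box transcription factors give these organs their identity. B-class factors act in petals and stamens, and C-class factors act in stamens and carpels and end the activity of the floral meristem. Carpels need the YABBY factor CRABS CLAW in addition. As the organs expand, their epidermis lays down a cuticle of cutin and wax, and green sepals and carpels build chloroplasts. Each bulk library mixes all of these cells, so that more cells of a type and more RNA per cell cannot be told apart.

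Library totals ran from 441291 to 9172182 counts. The fas library of 6 dpi, replicate 3, was the smallest, and 10 RPM there was 4.41 counts. The next smallest, lc replicate 2 of 6 dpi, had 2038899 counts, and several results that rest on fas at 6 dpi are also given without replicate 3. SlYABBY2b, broken in fas, was measured at 41.3 to 59.5 RPM in the 6 wild-type and lc libraries of 6 dpi and at 4.36 to 15.4 RPM in the 6 fas and lc/fas libraries, as labeled. The 13 floral organ identity genes summed to 4490 to 6535 RPM in the 12 libraries of 6 dpi. The 4 genes of the meristem list, STM, SlWUS, SlCLV3 and SlYABBY2b, summed to 87.9 to 148.3 RPM. SlYABBY2b had means of 53.1 and 48.4 RPM in the wild type and lc, against 9.97 and 6.16 in fas and lc/fas. The sum thus follows the broken gene and does not compare meristem content between genotypes. STM alone had a mean of 77.0 RPM in the wild type and 85.9, 83.3 and 95.4 in lc, fas and lc/fas. Both anther and tapetum markers were near 0 (summed 0 to 1.21 RPM).

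In the wild type the 150 genes had 6 dpi means from 10.2 to 715 RPM, with a median of 27.98. Most were modest in level. There were 56 genes from 10 to under 20 RPM, 49 from 20 to under 50, 24 from 50 to under 100, and 21 at 100 RPM or more. The ranking ratio ran from 17.1 down to 1.88 with a median of 2.43. Only 3 genes had a ratio of at least 10, 8 of at least 5, and 45 of at least 3. The stage with the next highest mean was 4 dpi for 132 genes, the SYM for 9, the F&IM for 7 and 2 dpi for 2. For 123 genes all 3 wild-type libraries of 6 dpi lay above all 12 of the other stages. A single gene, a CRABS CLAW homolog, stayed under 1 RPM at every other stage. The genes next to the limit did not stand apart from each other. The ratio was 1.88 for the last 3 genes kept, Solyc03g111610, Solyc02g070940 and Solyc09g089510, and 1.87 for the first 3 outside, Solyc02g085010, Solyc03g096760 (LSU2) and Solyc06g051940, with 6 dpi means of 28.4, 715, 504, 16.3, 32.3 and 38.4 RPM.

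The summed level of the 150 genes was highest at 6 dpi in all 4 genotypes. In the wild type the SYM held 1560 ± 224 RPM (SD, n = 3) and the F&IM 1328 ± 129. Buds of 2 dpi held 1148 ± 69.2 RPM, those of 4 dpi 4099 ± 169 and those of 6 dpi 10472 ± 201. At 6 dpi the 3 libraries, given here and below in the order of replicates 1, 2 and 3, held 10535, 10247 and 10634 RPM in the wild type. Those of lc held 9623, 10017 and 10488 RPM. Those of fas held 10784, 11734 and 8960 RPM, the last in the shallow library. Those of lc/fas held 12626, 11302 and 10911 RPM, all above the wild type. The sum gives most weight to the abundant genes, and the median level went the other way. It was 27.04, 26.73 and 23.61 RPM in lc/fas, all below the 27.11, 29.38 and 27.52 RPM of the wild type. The 4 dpi means were 4295, 4670 and 4687 RPM in lc, fas and lc/fas, at 2 dpi 1141, 1283 and 1279.5, and in the F&IM 1347, 1609 and 1518.

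**Figure D1:**
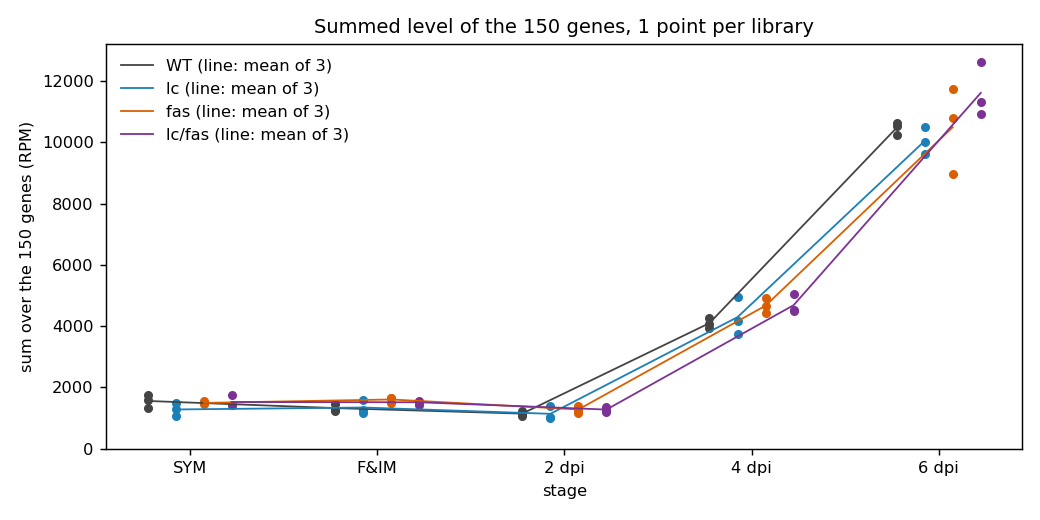
Sum of the 150 genes (y axis, RPM) by stage (x axis) in the 4 genotypes, with a point per library and lines through the means of 3. All 12 libraries of 6 dpi lie between 8960 and 12626 RPM, and the means of 4 dpi lie between 4099 and 4687 RPM.

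The question for the NILs was whether genes picked for a 6 dpi rise in the wild type rose at that stage there too. They did for most genes. Between 4 and 6 dpi, 104, 108 and 121 of the 150 genes rose in lc, fas and lc/fas, and 0 fell (edgeR quasi-likelihood test, adjusted p under 0.1 over 18712 genes). Of all genes tested, 1.62%, 3.21% and 3.24% rose in these lines and 0.892%, 3.25% and 1.37% fell. The median log2 fold change of the 150 genes was 1.24, 1.29 and 1.39 in lc, fas and lc/fas, or 2.36, 2.45 and 2.63 times the 4 dpi level, against log2 medians of -0.012, -0.028 and 0.029 over all genes. Their lowest values were 0.18, -0.75 and -0.23 and their highest 7.38, 7.91 and 7.15. There were 94 genes that rose in all 3 NILs, 18 in 2, 15 in 1 and 23 in none. Leaving out replicates 1, 2 and 3 of a line in turn gave 49, 69 and 75 genes for lc. It gave 66, 66 and 84 for fas and 76, 104 and 85 for lc/fas.

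**Figure D2:**
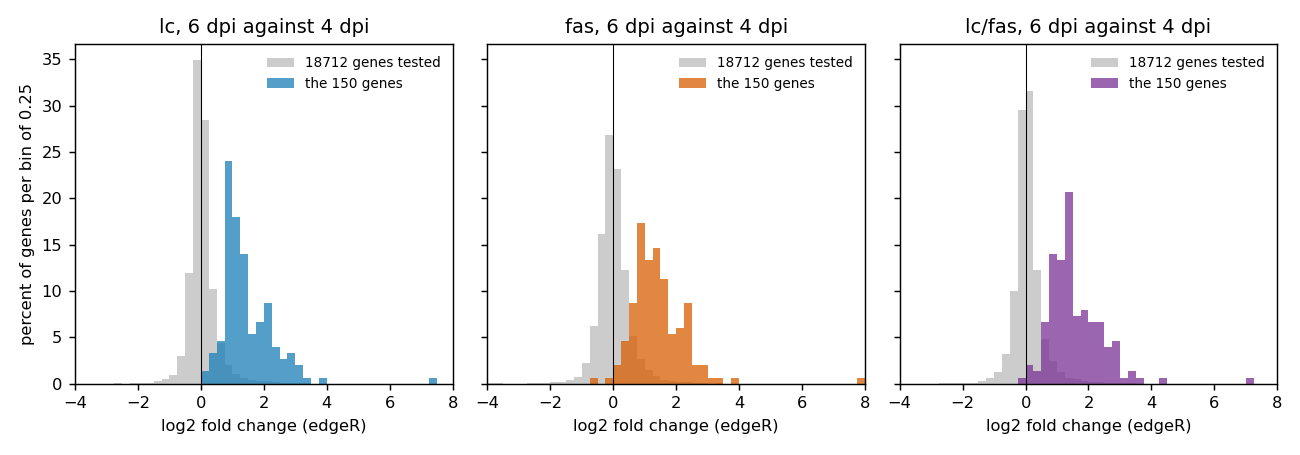
Distribution of the log2 fold change from 4 to 6 dpi (x axis, edgeR) in lc, fas and lc/fas, as percent of genes per bin of 0.25 (y axis), for the 18712 genes tested (gray) and the 150 genes (color). The 150 genes center on 1.24, 1.29 and 1.39 and all genes on -0.012, -0.028 and 0.029.

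Across all 5 stages the 6 dpi mean was the highest for all 150 genes in lc, and for 146 and 145 genes in fas and lc/fas. Among the 12119 genes at 10 RPM or more this held for 22.4%, 25.1% and 23.3%. Every 6 dpi library lay above all 12 libraries of the other stages for 122, 88 and 116 of the genes, against 4.71%, 3.3% and 3.7% of the 12119. Without the shallow library of fas these counts were 147 and 114 in fas, with 27% and 7.54% of all. The exceptions in fas were Solyc01g007500, Solyc05g049990, Solyc09g083430 and Solyc03g081230 (NHL26). In lc/fas they were Solyc01g007500, Solyc11g056480, Solyc09g082810, Solyc11g007260 and Solyc06g067980. Ranked by its own libraries with the same formula, each NIL had its own 150 genes. Of these 150, the wild-type list held 113 (75.3%), 97 (64.7%) and 105 (70%) for lc, fas and lc/fas, and 89 (59.3%) for fas without its shallow library. There were 77 genes in all 4 lists, while 22 of the 150 were in no NIL's list.

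Functions were read from the Arabidopsis genes that the study's supplementary tables pair with tomato genes. The paper describes several of these tables as lists of differentially expressed genes, some from these same libraries. The tables gave a partner to 57 of the 150 genes (38%), against 22.5% of the 12119. Genes with a partner, and the groups made from them, are therefore not a neutral sample of the 150. Each group total below is a minimum, since genes without a partner may belong to it. The other 93 genes have no name here and are given by identifier. Roles stated below are those of the Arabidopsis partner or its family. Calls per group stand beside 104, 108 and 121 of all 150 genes in lc, fas and lc/fas. Of all genes tested, 1.62%, 3.21% and 3.24% rose. As all 150 genes were picked for this rise in the wild type, a high share in a group is not particular to its function.

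The gene with the steepest rise was Solyc05g012050, a homolog of CRABS CLAW, which in Arabidopsis shapes the carpel and forms the nectary. At 6 dpi it was measured at 10.4, 29.1 and 19.2 RPM in the wild type. The lc libraries held 39.9, 34.8 and 15.03 RPM. Those of fas held 43.6, 50.2 and 18.1 RPM and those of lc/fas 36.6, 68.7 and 26.7. The genotypes overlapped, with wild-type replicate 1 the lowest of the 12 libraries. At 4 dpi the gene was close to absent, with 2 counts over the 3 libraries of the wild type, 2, 2 and 4 in lc, fas and lc/fas, so that it came on between 4 and 6 dpi. The 6 dpi to 4 dpi ratio of pooled counts in the NILs was 197 (95% exact interval 54.3 to 1633), 314 (86.4 to 2597) and 142 (55.4 to 524) for lc, fas and lc/fas, where the intervals cover counting error only. In all 3 NILs the rise passed the test (edgeR adjusted p of 1.2e-11, 1e-12 and 5e-13).

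The second CRABS CLAW homolog, Solyc01g010240, was also on the list, at rank 62. It differed from the first in its earlier course, with 9.69 RPM in the wild-type SYM against 1.56 RPM at 4 dpi. At 6 dpi it was at 33.9, 19.2 and 28.6 RPM in the wild type and 29.6, 27.0 and 23.5 in lc. The fas libraries held 37.9, 21.9 and 22.7 RPM and those of lc/fas 52.6, 25.6 and 34.3. The genotypes overlapped at 6 dpi. From 4 dpi it rose by 3.33 ± 0.43, 3.07 ± 0.42 and 3.56 ± 0.41 (log2, SE) in the lc, fas and lc/fas lines (edgeR adjusted p of 3e-06, 6.9e-06 and 1.5e-07).

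SlGLO1 (Solyc08g067230, paired with PISTILLATA) is a B-class MADS-box gene of petals and stamens and the most abundant floral regulator among the genes with a partner. It was measured at 576, 663 and 432 RPM in the wild type and 714, 911 and 484 in lc. The fas libraries held 613, 917 and 526 RPM and those of lc/fas 797, 884 and 515. Replicate 2 was the highest and replicate 3 the lowest in each genotype. The genotypes overlapped, but each NIL library was above the wild-type library of the same replicate number. The share of all genes for which this held was not computed. SlGLO1 rose by 1.29 ± 0.29, 1.11 ± 0.29 and 1.29 ± 0.29 in lc, fas and lc/fas (log2, edgeR adjusted p of 0.0108, 0.0271 and 0.00744). The call was lost without lc replicate 1 (adjusted p of 0.126) or 2 (0.231), fas replicate 1 (0.163) or 2 (0.135), and lc/fas replicate 1 (0.18).

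TAG1 (Solyc02g071730), the tomato AGAMOUS and C-class gene of stamens and carpels, was at 116, 179 and 125 RPM in the wild type. It was at 215, 179 and 154 RPM in lc. The fas libraries held 233, 267 and 156 RPM and those of lc/fas 176, 255 and 156. The NIL means were 0.39, 0.63 and 0.47 above the wild type on the log2(RPM + 1) scale, with overlapping libraries. By replicate number, each NIL library was above the wild-type one except lc replicate 2, at 179 RPM in both. TAG1 rose by 1.05 ± 0.26, 1.01 ± 0.26 and 0.89 ± 0.26 in lc, fas and lc/fas (log2, edgeR adjusted p of 0.0227, 0.0216 and 0.0459). The call was lost without lc replicate 1 (adjusted p of 0.37) or 2 (0.14), fas replicate 1 (0.227) or 2 (0.158), and lc/fas replicates 1, 2 or 3 (0.112, 0.298 and 0.199). In lc/fas it was also lost without a filter on low counts (0.146). The fifth regulator, Solyc01g087990, is paired with AGL15, a MADS-box gene of embryos. It rose in all 3 NILs as well, by 1.24, 0.80 and 0.95.

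Other transcription factors among the genes with a partner were Solyc02g062960 (HB21, an HD-Zip factor), Solyc01g007070 (BLH1, a BELL homeodomain factor), Solyc11g073120 (MYB48) and Solyc06g068360 (ESE3, an ERF factor). The first 3 rose in all 3 NILs and ESE3 passed the test in none. HB21 was measured at 96.9, 123 and 91.9 RPM in the wild type and 105, 79.9 and 88.3 in lc. The fas libraries held 148.1, 172 and 65.7 RPM and those of lc/fas 153.1, 159 and 74.5. In these lines replicates 1 and 2 were above all wild-type libraries and replicate 3 below all. It rose by 1.92, 1.59 and 1.78 in lc, fas and lc/fas, a call lost without lc replicate 1 (edgeR adjusted p of 0.119) or fas replicate 2 (0.113). MYB48 was at 24.2, 30.3 and 18.1 RPM in fas, all above the wild-type values of 13.6, 17.1 and 15.2 RPM. ESE3 had log2 fold changes of 0.56, 0.24 and 0.74, and only with the replicate number as a block did it pass the test in lc/fas (edgeR adjusted p of 0.0397).

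**Figure D3:**
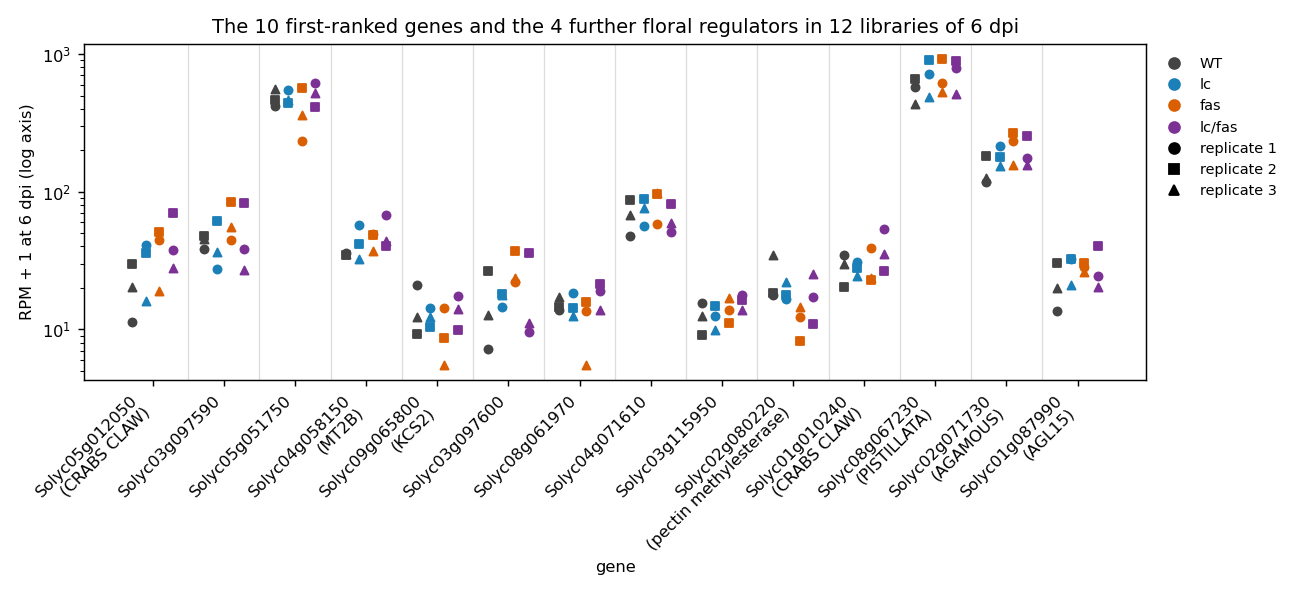
Level at 6 dpi (y axis, RPM + 1, log axis) of the first 10 genes of the ranking and the 4 further floral regulators (x axis), with color for the genotype and symbol for the replicate. With replicate numbers set aside, the 4 genotypes overlap for CRABS CLAW homolog Solyc05g012050, for SlGLO1 and for TAG1. All fas and lc/fas libraries of MT2B lie above the wild type.

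The genes at ranks 2 and 3 have no named partner. Solyc03g097590 was at 37.6, 46.6 and 44.4 RPM in the wild type, from 1.06 to 3.11 RPM at 4 dpi. The lc libraries held 26.5, 60.3 and 35.3 RPM, the fas libraries 43.6, 83.2 and 54.4, and those of lc/fas 37.4, 82.1 and 25.8. It rose by 3.86, 3.82 and 4.48 (log2) in the 3 NILs. Solyc03g097600, the next gene by identifier, ranked 6 and rose by 2.80, 2.98 and 3.15. Solyc05g051750, at rank 3, was more abundant, at 421, 459 and 556 RPM in the wild type. The lc libraries held 546, 442 and 461 RPM and those of lc/fas 611, 415 and 519.9. The fas values were more spread, at 234, 571 and 358 RPM. The rise was 3.16, 2.75 and 3.35 in lc, fas and lc/fas.

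Metallothionein MT2B (Solyc04g058150, rank 4), a small protein that binds metals, had close wild-type replicates, at 34.8, 33.6 and 34.0 RPM. The values were 48.5, 47.5 and 36.3 RPM in fas and 67.2, 39.4 and 43.1 in lc/fas, all above the wild type. In lc they were 55.9, 40.7 and 31.3 RPM and overlapped it. The means were 0.27, 0.35 and 0.49 above the wild type. It rose from 4 dpi by 3.17, 3.28 and 3.404 in lc, fas and lc/fas. Among all 12119 genes, no overlap above the wild type occurred for 2.1% in fas and 0.965% in lc/fas.

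The 9 wax and lipid genes hold enzymes of the cuticle and of fatty acid oxidation. In lc 8 of them rose, in fas 8 and in lc/fas 9, with 7 in all 3 lines and median log2 fold changes of 1.404, 1.47 and 1.79. KCS2 (Solyc09g065800), which lengthens fatty acids for wax and suberin, was listed at 0 RPM in the wild-type SYM, F&IM and 2 dpi libraries. At 6 dpi it was at 19.8, 8.25 and 11.2 RPM in the wild type and 13.4, 9.32 and 11.2 in lc. The fas libraries held 13.3, 7.71 and 4.53 RPM and those of lc/fas 16.6, 8.91 and 13.1. Replicate 1 was the highest in each genotype. The rise of 1.73, 1.56 and 1.79 was lost without any 1 replicate of lc (edgeR adjusted p of 0.146 to 0.237), without fas replicate 1 (0.489) or 2 (0.142), and without lc/fas replicate 1 (0.116) or 3 (0.1).

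CER1 (Solyc01g088430), of wax alkane formation, was at 12.9, 10.9 and 23.9 RPM in the wild type and 6.77, 11.8 and 14.2 in lc. In fas it was at 4.06, 9.68 and 18.1 RPM, and in lc/fas at 7.30, 6.33 and 11.4. The NIL means were lower than the wild type by 0.49, 0.67 and 0.82 on the log2(RPM + 1) scale, with overlapping libraries. CER1 rose by 2.69, 1.66 and 1.99 in lc, fas and lc/fas, which was lost without fas replicate 2 (edgeR adjusted p of 0.369) or 3 (0.154) and without lc/fas replicate 1 (0.104) or 3 (0.122). The fatty acyl reductase FAR4 (Solyc06g074410) rose by 2.48, 2.06 and 2.52 and alpha-DOX2 (Solyc03g119060), which oxidizes fatty acids, by 1.25, 1.30 and 1.51. CER3 (Solyc03g117800), the partner of CER1 in alkane formation, rose in fas and lc/fas and had a log2 fold change of 0.66 in lc. A lipid transfer protein (Solyc12g014630) rose by 1.00 in lc and 0.91 in lc/fas and had a log2 fold change of 0.26 in fas (edgeR adjusted p of 0.68). Its call was lost without any 1 replicate of lc (adjusted p of 0.212 to 0.251) and without lc/fas replicate 1 (0.147) or 3 (0.523).

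All 3 genes with a hormone partner rose in all 3 NILs. An ACC oxidase (Solyc02g036350), which makes ethylene, was at 269, 303 and 315 RPM in the wild type. It was at 216, 261 and 264 RPM in lc, all below the wild type. In fas it was at 268, 315 and 197 RPM, and in lc/fas at 321, 390.4 and 253. It rose from 4 dpi by 1.79 ± 0.24, 1.78 ± 0.24 and 2.29 ± 0.24 in lc, fas and lc/fas (log2, edgeR adjusted p of 6.6e-06, 6.9e-06 and 3.4e-08). A gibberellin-regulated protein (Solyc04g078200) was at 128, 105 and 133 RPM in the wild type and 99.0, 90.0 and 99.9 in lc/fas, without overlap. It rose by 0.99, 1.14 and 1.25. LOG3 (Solyc10g084150), an enzyme that releases active cytokinin, rose by 1.01, 0.99 and 1.36, a call lost without lc replicate 1 (edgeR adjusted p of 0.508) or 2 (0.303) and fas replicate 1 (0.428) or 3 (0.102).

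Both genes with a cell wall partner rose in lc and fas. A pectin methylesterase (Solyc02g080220), which makes pectin open to stiffening or breakdown, was at 16.8, 17.3 and 33.8 RPM in the wild type and 15.5, 16.7 and 20.9 in lc. In fas it was at 11.3, 7.17 and 13.6 RPM, all below the wild type, and in lc/fas at 16.2, 9.85 and 24.3. It rose by 2.82, 1.30 and 2.53 in lc, fas and lc/fas. The call in fas was lost without replicate 1 (edgeR adjusted p of 0.523) or 2 (0.107) and in the fit of all 60 libraries (0.123). XTH30 (Solyc01g081060), which cuts and rejoins xyloglucan, rose by 1.25 for lc and 1.29 for fas. For lc/fas its log2 fold change was 0.77 (edgeR adjusted p of 0.11, and 0.0331 with the replicate block). Its call in fas was lost without replicate 1 (adjusted p of 0.141).

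The 4 genes with a partner in specialized metabolism rose in all 3 NILs. TPS21 (Solyc12g006570), which in Arabidopsis makes sesquiterpene volatiles of the flower, was at 27.2, 45.2 and 39.1 RPM in the wild type and 52.8, 49.0 and 36.3 in lc. In fas it was at 26.6, 34.8 and 22.7 RPM, and in lc/fas at 22.4, 26.7 and 23.1, all below the wild type. It rose from 4 dpi by 1.13, 1.64 and 1.42. Solyc04g011690 is paired with TT7, the flavonoid 3′-hydroxylase of Arabidopsis, but is not the tomato gene listed for that enzyme below. It was at 12.7, 37.9 and 23.8 RPM in the wild type and 54.2, 43.7 and 33.5 in lc. Its mean in lc was 0.90 above the wild type on the log2(RPM + 1) scale. It rose by 1.24, 1.46 and 1.56, a call lost without lc replicate 1 (edgeR adjusted p of 0.187) or fas replicate 2 (0.128). A SAM-dependent methyltransferase (Solyc02g084950) at 114 to 150.1 RPM in the wild type rose by 1.79, 1.63 and 1.76, and a strictosidine synthase-like gene (Solyc03g114560) by 2.09, 1.98 and 2.38.

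Of 5 genes with a stress partner, 4 rose in all 3 NILs. They included MT2B, RD26 (Solyc07g063410), a NAC factor of drought responses, and MIPS3 (Solyc04g054740), the first enzyme of inositol synthesis. RD26 was at 60.7, 90.5 and 60.2 RPM in the wild type and 53.5, 53.0 and 48.7 in lc, all below it, and rose from 4 dpi by 1.05, 1.06 and 1.23. That call was lost without lc replicates 1, 2 or 3 (edgeR adjusted p of 0.409, 0.368 and 0.127) and fas replicate 1 (0.242) or 2 (0.175), and in lc without a filter (0.134). MIPS3 rose by 0.95, 0.92 and 0.88, which was lost without lc replicate 1 (adjusted p of 0.201) or lc/fas replicate 1 (0.12). A LEA protein (Solyc07g053360), of a family found in drying tissue, passed the test in none.

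Of 6 genes with a defense partner, 4, 3 and 4 rose in lc, fas and lc/fas. MLP43 (Solyc10g048030), of the major latex protein family, rose by 1.61, 1.43 and 1.71. A further member of that family, Solyc07g008710, rose by 1.19, 1.30 and 1.53. Without fas replicate 2 MLP43 lost its call in fas (edgeR adjusted p of 0.117), and the second gene lost it without lc replicate 1 (0.167) or 2 (0.159) and fas replicate 1 (0.121). A basic chitinase (Solyc02g082930) rose in all 3 lines by 2.62, 1.69 and 2.92. Its neighbor Solyc02g082920 rose by 1.84 in lc and 1.56 in lc/fas, and the pair may share reads.

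The 2 genes paired with inhibitors of proteases had wide replicates. CYSB (Solyc00g071180), a cystatin, was at 12.7, 85.8 and 42.2 RPM in the wild type and 46.1, 111 and 134 in lc, where its mean was 1.27 above the wild type on the log2(RPM + 1) scale. The values were 25.3, 83.4 and 56.7 RPM in fas and 19.4, 112 and 58.4 in lc/fas. Replicate 1 was the lowest in each genotype. CYSB had log2 fold changes of 1.43, 1.58 and 1.19 without passing the test. With the replicate block it passed in lc, fas and lc/fas (edgeR adjusted p of 0.0174, 0.00884 and 0.0837). The PR-6 proteinase inhibitor (Solyc09g089510, rank 150) was at 387, 459 and 665 RPM in the wild type and 280.4, 790.1 and 1215 in lc. In fas it was at 430.1, 667 and 598 RPM, and in lc/fas at 548, 931 and 1068. Its log2 fold changes were 1.04, 1.31 and 1.45 without a call. With the block it was called in lc, fas and lc/fas (edgeR adjusted p of 0.0928, 0.00825 and 0.00556).

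Of 7 genes with a photosynthesis partner, 2, 3 and 5 rose in lc, fas and lc/fas. CAB1 homolog Solyc02g070940, a chlorophyll a/b-binding protein of photosystem II, had the highest wild-type mean of the list. It was measured at 1122, 278 and 745 RPM in the wild type and 517, 474 and 554 in lc. The fas libraries held 1359, 381 and 397 RPM and those of lc/fas 984, 419 and 733. Replicate 1 was the highest in the wild type, fas and lc/fas. The log2 fold change from 4 dpi was 0.23, 0.84 and 0.69 and passed the test in no NIL (edgeR adjusted p of 0.94, 0.17 and 0.39), but in fas it did with the replicate block (0.083) or without the shallow library (0.055).

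A second CAB1 homolog, Solyc02g071010, was at 146, 67.0 and 127 RPM in the wild type and 215, 59.6 and 127 in lc/fas, where it rose by 1.17 (edgeR adjusted p of 0.0626). Without lc/fas replicate 1 that p was 0.502 and without replicate 3 it was 0.393. The call was also lost without a filter (0.144) and without lc replicate 1 (0.106) or 3 (0.114) or fas replicate 3 (0.101). With the block the gene was called in lc (0.00379) and fas (0.0203) as well. LHCB3 (Solyc07g063600) was at 206, 113 and 184 RPM in the wild type and was called in no NIL. With the block it was called in lc and lc/fas (edgeR adjusted p of 0.0998 and 0.0155). A homolog of the Rubisco activase RCA (Solyc09g011080) rose in all 3 lines by 1.92, 2.56 and 2.03. The replicate number ran with the level of these genes. Replicate 1 was the highest 6 dpi library for 6 of the 7 in the wild type. In lc, fas and lc/fas it was the highest for 6, 5 and 6. Replicate 2 was the lowest for 6 in the wild type and for 6, 4 and 6 in these NILs. Part of this was general. Over the 12119 genes replicate 1 was the highest for 38.9% in the wild type and 34.5%, 30.0% and 31.8% in the NILs, in the same order. Replicate 2 was the lowest for 47.3% in the wild type and 36.1%, 24.2% and 44.8% in the NILs. Whether the time of collection had a part in the replicate pattern was not tested. Solyc11g007260, a copy of the plastid gene rpoC2, rose in no NIL, with log2 fold changes of 0.18, 0.38 and -0.23.

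Of the 93 genes without a partner, 62, 66 and 75 rose in lc, fas and lc/fas, and 57 in all 3. They hold 3 of the 5 most abundant genes of the list. Solyc09g097770 was at 633, 622 and 642 RPM in the wild type. It was at 602, 524 and 578 RPM in lc, all below the wild type, but the fas libraries held 810.1, 868 and 653 RPM and those of lc/fas 1116, 659 and 680.2, all above. It rose from 4 dpi by 1.34, 1.38 and 1.55. Solyc07g007250 was at 507, 310.1 and 769 RPM in the wild type and 705, 539 and 1104 in lc/fas, where it rose by 1.28 (edgeR adjusted p of 0.0881). That call was lost without lc/fas replicate 1 (0.317), 2 (0.166) or 3 (0.576), lc replicate 2 (0.124) and fas replicate 1 (0.114) or 2 (0.14). It was lost too without a filter (0.168), with the stricter filter (0.109) and with the filter on the other 4 stages (0.107). With the block the gene was called in lc and fas too (0.0565 and 0.0187). Solyc04g071620 was at 215, 899 and 423 RPM in the wild type but 635, 619 and 621 in lc, and rose by 1.50, 1.31 and 1.15.

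Some of the genes lie side by side. With a gap of at most 50 in the identifier, 26 of the 150 genes fell into 9 runs. The longest run had 6 genes, from Solyc02g070940 to Solyc02g071010, and included both CAB1 homologs. Replicate 1 was the highest library for 6 of these in the wild type and for 5, 6 and 6 in the NILs lc, fas and lc/fas. Over the 12119 genes it was the highest for 38.9% in the wild type and 34.5%, 30.0% and 31.8% in the NILs. Near-identical copies among the 6 genes of the run may share reads. Apart from the CAB1 homologs, the genes of the run have no partner and are counted outside the photosynthesis group. Another run held CRABS CLAW homolog Solyc01g010240 with Solyc01g010180 and Solyc01g010200, and one held Solyc09g092720, Solyc09g092740, Solyc09g092750 and Solyc09g092760. By chromosome, 12.7% of the genes were on chromosome 9 and 12% on chromosome 7, against 7.52% and 7.74% of the 12119.

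Against the wild type at 6 dpi, the 150 genes were shifted little as a group. The median difference on the log2(RPM + 1) scale was -0.090, -0.10 and 0.033 in lc, fas and lc/fas, beside -0.027, -0.064 and -0.024 over the 12119 genes. Selection on high wild-type values lowers such differences by itself. The NIL mean was below the wild type for 96, 89 and 67 genes in lc, fas and lc/fas, and 45 genes were below it and 32 above it in all 3. The difference was within 1 SD of the wild-type replicates for 121, 97 and 119 genes. The wild-type replicates of the 150 genes spread wider than those of the 12119 genes (median SD of 0.45 against 0.31). Lying within that SD therefore says little of likeness to the wild type. Shares over the 12119 genes were not computed for these counts of genes. Without its shallow library the fas median was 0.0024. The median in lc was -0.059 without wild-type replicate 3. In lc/fas it turned to -0.024 without wild-type replicate 1, with 81 genes lower and 69 higher, and to -0.058 and -0.048 without lc/fas replicates 1 and 2.

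By function, among the genes with a partner, the differences went both ways. Those genes are not a neutral sample, since the partners come partly from lists of differentially expressed genes. The 5 floral regulators had NIL means at or above the wild type, with medians of 0.39, 0.47 and 0.42 in lc, fas and lc/fas, and TAG1 and CRABS CLAW homolog Solyc05g012050 (0.59, 0.89 and 1.13) were among the highest. The wax and lipid genes had medians of -0.13, -0.34 and -0.054. The photosynthesis genes had medians of -0.20, -0.16 and 0.13. The largest negative differences were -1.17, -2.17 and -1.33 in lc, fas and lc/fas. They belonged to Solyc09g083430, Solyc01g007500 and Solyc06g067980 in that order.

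**Figure D4:**
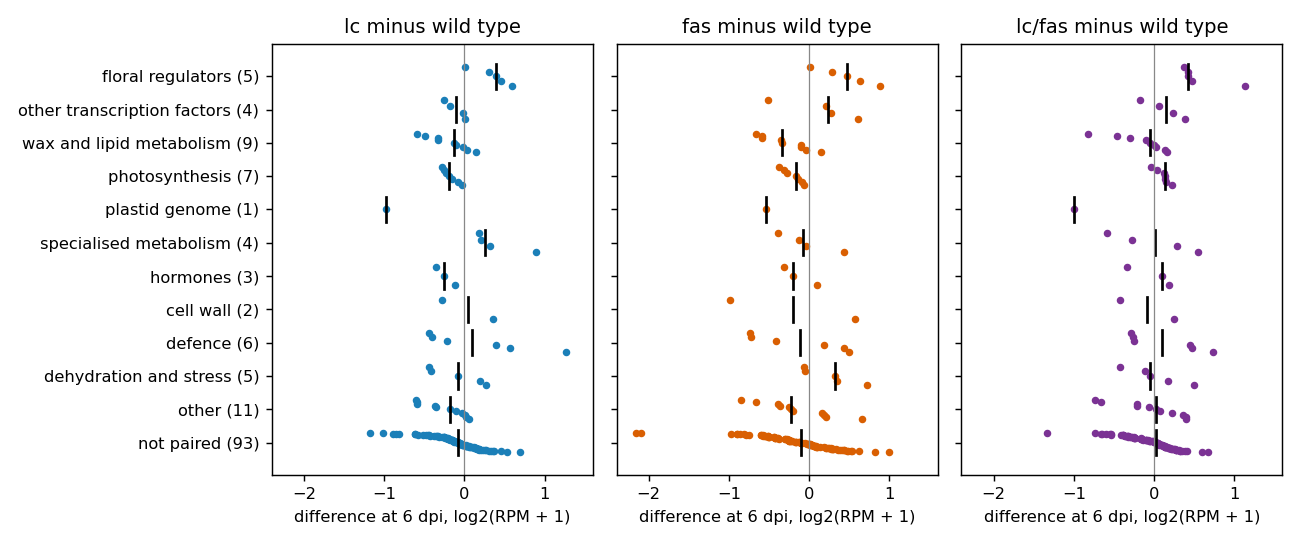
Difference of the NIL mean from the wild type at 6 dpi (x axis, log2(RPM + 1)) for the 150 genes by functional group (y axis, number of genes in brackets), with a point per gene and a black bar at the median. The bars of the 5 floral regulators lie at 0.39, 0.47 and 0.42, and those of the 9 wax and lipid genes at -0.13, -0.34 and -0.054.

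Few genes were fully apart from the wild type. All 3 libraries lay below all 3 of the wild type for 10, 7 and 4 genes in lc, fas and lc/fas, which among the 12119 genes held for 2.87%, 6.33% and 1.98%. All 3 lay above for 0, 4 and 3 genes, against 1.29%, 2.1% and 0.965%. The 10 in lc included the ACC oxidase, RD26 and a cyclopropane fatty acid synthase (Solyc09g090500, at 7.76, 8.34 and 9.33 RPM against 11.1, 11.3 and 18.5). The 7 in fas included the pectin methylesterase and chitinase Solyc02g082920 (9.93, 10.2 and 11.3 RPM against 24.9, 12.99 and 17.9). The genes above in fas were MT2B, MYB48, Solyc09g097770 and Solyc07g053020, and those above in lc/fas MT2B, Solyc09g097770 and Solyc09g091890. The 4 below in lc/fas were TPS21, the gibberellin-regulated protein, Solyc10g007870 and Solyc06g067980. Without the shallow library, fas had 14 below and 13 above, with 13.1% and 6.41% of all.

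Between the NILs at 6 dpi, 0 of the 150 genes differed in fas against lc, 0 in lc/fas against lc and 0 in lc/fas against fas (edgeR, adjusted p under 0.1). At an unadjusted p under 0.05 there were 7, 7 and 13 genes, which is fewer per gene than over all 18712 genes for fas against lc and for lc/fas against fas (7.95%, 4.44% and 14.4% of all genes). Of all genes 0.00534%, 0.0107% and 0.016% were called, which is 1, 2 and 3 genes. The median difference of the 150 genes was 0.035, 0.19 and 0.12 (log2). DESeq2 called 0, 1 and 0. The rise from 4 to 6 dpi differed between NILs for 0 genes in each of the 3 interaction tests, with 4 genes for fas against lc, 0 for lc/fas against lc and 3 for lc/fas against fas at an unadjusted p under 0.05, beside 3.11%, 1.35% and 4.25% of all genes.

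TPS21 was nearest to a difference between NILs. It was lower in lc/fas than in lc by 0.89 ± 0.19 (log2, SE), with 3 of 3 libraries below all 3 (edgeR p of 3.3e-05, adjusted 0.203). The adjusted p lay between 0.0264 with DESeq2 and 1 over the alternatives tried. Against lc, fas had a difference of -0.66 (edgeR adjusted p of 0.421). For lc/fas against fas, with the replicate block 2 genes were called, Solyc09g082810 (lower in lc/fas by 1.17) and lipid transfer protein Solyc12g014630 (higher by 0.59). Without lc/fas replicate 2, 26 genes were called, 15 higher and 11 lower, when 14.8% and 11% of all genes were called. That setting leaves out replicate 2 of lc/fas at all 5 stages, and its 6 dpi library was not left out alone.

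The spread among replicates was wider for these genes than for most. The median SD of log2(RPM + 1) over 3 libraries was 0.45 in the wild type, 0.29, 0.53 and 0.42 in lc, fas and lc/fas, beside 0.31, 0.19, 0.31 and 0.29 over the 12119 genes. Without the shallow library it was 0.34 in fas. As a CV the medians were 31.8%, 21.4%, 37.1% and 30.3%. An SD over 1 occurred for 13 genes in the wild type, 3, 18 and 16 in lc, fas and lc/fas. Replicate 2 was the highest library for 69 genes (46%) in the wild type, 69 in fas and 69 in lc/fas, and for 46 (30.7%) in lc. Over the 12119 genes this held for 39.7%, 36.0%, 41.4% and 28.8% in the wild type, fas, lc/fas and lc.

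For 7 genes the highest wild-type value at 6 dpi was over 3 times the middle one. Without that wild-type replicate 6 of them left the list, and Solyc12g098900 stayed on it. Solyc01g007500 was at 201, 4.95 and 7.96 RPM in the wild type and between 0 and 31.7 RPM in the 9 NIL libraries. Solyc11g056480 was at 164, 13.4 and 15.2 RPM and rpoC2 (Solyc11g007260) at 41.5, 7.83 and 5.26. In these 3, replicate 1 was high in the wild type, and they rose in no NIL. The other 4 were high in replicate 2. Solyc12g098900 was at 32.1, 169 and 14.6 RPM in the wild type and 26.5, 42.7 and 11.4 in lc, and again highest in replicate 2 of fas (48.5, 203 and 18.1) and lc/fas (17.1, 113 and 13.1). The LEA protein was at 33.2, 157 and 29.4 RPM in the wild type and 89.4, 183 and 43.1 in fas. Its replicate 2 was the highest in lc/fas as well (26.7, 103 and 22.4 RPM), but not in lc (54.2, 42.7 and 26.4). The last 2 were Solyc01g109800 (12.9, 64.7 and 14.9 RPM) and Solyc08g076970 (3.69, 24.7 and 6.83 RPM). Of the 150 genes, 126 stayed on the list without wild-type replicate 1, 116 without 2 and 126 without 3, and 82 stayed on it in all 3 cases.

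**Figure D5:**
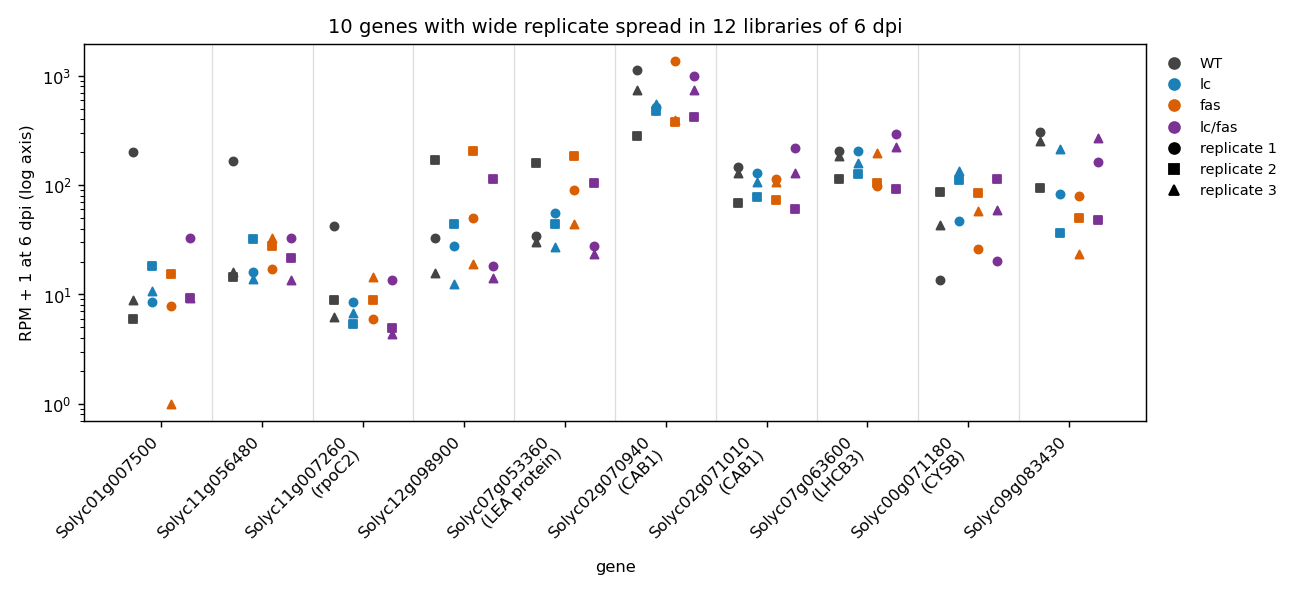
Level at 6 dpi (y axis, RPM + 1, log axis) of 10 genes with wide replicate spread (x axis), with color for the genotype and symbol for the replicate. Solyc01g007500 and Solyc11g056480 are high in wild-type replicate 1 alone (201 and 164 RPM), and Solyc12g098900 is highest in replicate 2 of all 4 genotypes.

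Gene lists of related pathways show how far the rise extended beyond the 150 genes. Of 13 floral organ identity genes, 4 were on the list. Among the 11 tested, 5, 5 and 4 rose from 4 to 6 dpi in lc, fas and lc/fas. Beside the 4 listed genes these were TM6, a B-class gene, in lc (0.85) and fas (0.57). MC, a MADS-box gene of sepals and inflorescences, fell in fas by 0.60 (edgeR adjusted p of 0.0348). Of 9 flavonoid genes, none on the list, 2, 2 and 4 rose in lc, fas and lc/fas. FLS, which makes flavonols, rose in each. The listed flavonoid 3′-hydroxylase, Solyc03g115220, passed the test in none, with log2 fold changes of 0.067, 0.21 and 0.26 in lc, fas and lc/fas. Of 7 cuticle genes tested, 1 rose in lc and 0 in fas or lc/fas, in which their median log2 fold changes were -0.074 and 0.052. Of 8 glycoalkaloid genes 1 rose in each line, GAME11. Of 4 trichome genes tested, 0 passed the test. In the opposite direction, STM, which keeps meristem cells undifferentiated, fell in lc, fas and lc/fas by 0.84, 0.99 and 0.89 (edgeR), and SlWUS and SlCLV3 fell in lc and lc/fas.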

How the data were processed

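3′ Tag RNA-seq of 4 genotypes at 5 stages with 3 replicates gave 60 libraries. The authors trimmed reads with fqtrim, aligned them by Rsubread 3.4 against tomato annotation ITAG 2.4, and deposited whole counts per gene, without normalization. How reads were counted, and whether strand was used, is not given in the sources used here, so overlapping or antisense genes and near-identical copies are uncertain. A nameless line (0.233% to 3.01% of a library), equal to how many genes reached 3 counts, was excluded. RPM used column totals, and levels were compared as log2(RPM + 1). Library totals were 441291 to 9172182 counts.

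Tests used edgeR 4.0.16 in R 4.3.3 (TMM, filterByExpr over the 15 NIL groups, 18712 genes with all 150 among them, robust quasi-likelihood, two-sided, Benjamini-Hochberg over all genes) with the study's threshold of an adjusted p under 0.1, and were tested on simulated data. Exact intervals at 95% are binomial and cover counting error only, as reads are not independent molecules. Figures were drawn with Python 3.11.15, pandas 2.3.3 and matplotlib 3.10.9.

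The genes, lists, comparisons and alternatives were chosen with earlier results of these data known. Named are ranks 1 to 20, list genes, the 3 most abundant of each function, genes called between NILs, the 5 largest differences from the wild type each way in each NIL, up to 10 genes without a call and the 3 genes on each side of the last rank. AGL15, MYB48, FAR4, CER3, RCA, both chitinases, the cyclopropane fatty acid synthase, NHL26, Solyc09g091890 and Solyc07g053020 were named after their values were seen, as were members of the runs of neighbors. The functional groups were to come from product names. The Arabidopsis partners in the study's supplementary tables were used in their place. No sequences were used here.

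To see whether equal replicate numbers pair libraries, the residuals of equally numbered libraries were correlated. All 3 correlations were over 0.1 for 6 against 4 dpi in fas (0.121 to 0.258) and lc/fas (0.182 to 0.417). They were too for lc/fas against fas at 6 dpi (0.220 to 0.327). The reported fit had no replicate block, so the reported counts and p-values leave these libraries unpaired. The block was run as an alternative. Alternatives were DESeq2 1.42.0, its size factors, column totals, no filter, a stricter filter (10 counts in a share of 0.5 of the libraries), all 60 libraries, the replicate block, a threshold of 0.05, and leaving out each collection or the shallow library. For the ranking they were TMM, 5 RPM added, medians and a minimum of 20 RPM. A filter on the other 4 stages, a block of 1 genotype and replicate number, and the stage profile of fas without its shallow library were chosen after seeing the data.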

Additional observations from a re-analysis of the deposited data

How the results depend on the processing

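The stage test gave 79 to 130 genes for lc, 88 to 127 for fas and 94 to 138 for lc/fas under alternatives that kept each collection, each within 1.5 times the reported 104, 108 and 121. The lowest counts came from the stricter filter, under which 124 of the 150 genes were tested. With the replicate block the counts were 129, 127 and 136. The reported counts are from the fit without the block, and for lc not all correlations of equal replicate numbers were over 0.1. Leaving out 1 collection at a time gave 49 to 109 genes for lc, 66 to 112 for fas and 76 to 118 for lc/fas. Of the 150 genes, 147 were kept in the ranking with TMM, 131 with 5 RPM added and 117 with medians. A minimum of 20 RPM kept 94, a number fixed by the 56 genes under 20 RPM, so it does not test the ranking. Between NILs at 6 dpi the counts were 0 to 1 for fas against lc (1 gene, Solyc09g014350, without fas replicate 2), 0 to 1 for lc/fas against lc (1, TPS21, with DESeq2, with DESeq2 size factors, without a filter, with the stricter filter, with the filter on the other 4 stages and with the block, and without fas replicate 1, lc replicate 3 or lc/fas replicate 2) and 0 to 26 for lc/fas against fas (2 with the block, 26 without lc/fas replicate 2). The median difference from the wild type without 1 replicate ran from -0.12 to -0.059 for lc, from -0.20 to 0.0024 for fas and from -0.058 to 0.076 for lc/fas, and changed sign for fas and lc/fas. For genes named with a test, 4019 of the alternative values kept direction and side of the threshold, 130 lost the call, 82 gained it and 21 turned in sign. In lc the block added calls for CYSB, PR-6, Solyc01g066570, Solyc02g071010, Solyc07g007250, Solyc07g063600, Solyc08g076970, Solyc09g082810 and Solyc12g099930, and it changed no call of a named gene in fas or lc/fas other than those given above and Solyc06g072840 in lc/fas and Solyc09g082810 and Solyc09g091600 in fas or lc/fas. Sign turned for Solyc01g007500 in fas with DESeq2 (-0.076) and without replicate 2 (-0.78, range up to 1.20), and in lc/fas with DESeq2 (-0.065), column totals (-0.020), no filter (-0.0046), the stricter filter (-0.00031), the filter on the other 4 stages (-0.011), the block of genotype and replicate number (-0.051), without lc replicate 1 (-0.019) and without lc/fas replicate 1 (-1.21, range up to 0.68). It also turned for Solyc11g007260 in lc without replicate 1 (-0.15, range up to 0.35) and in lc/fas without replicate 2 (0.27, range down to -1.41), Solyc05g049990 in fas without replicate 3 (0.033, range down to -0.34), Solyc07g063600 in fas without replicate 3 (-0.0055, range up to 0.58) or its 6 dpi library alone (-0.062), Solyc02g070940 in fas without replicate 1 (-0.041, range up to 1.22), Solyc11g056480 in lc/fas without replicate 1 (-0.45, range up to 0.50) and Solyc09g083430 in lc/fas without replicate 3 (-0.25, range up to 0.74). For Solyc06g067980 it turned in fas without replicate 2 (-0.80, range up to 1.08), in lc/fas without replicate 3 (-0.015, range up to 0.31) and for lc/fas against fas without fas replicate 2 (0.49, range down to -1.64). In none of these did the gene pass the test in the reported fit, and the causes were not tested. Depth limits the fas values most, since 10 RPM was 4.41 counts in replicate 3 of 6 dpi.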
